A study of Homo sapiens with 8 samples.

Results

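The nuclear genes for proteins of the mitochondrial ribosome were followed in 5637 cells, a human bladder cancer line, after stable knockdown of TRMT61A. The members were the rows of the mRNA count table named MRPL or MRPS followed by a number, with at most a letter A, B or C after it, which gave 77 of 16547 genes, 49 with an MRPL name and 28 with an MRPS name. MRPS18B was not analysed here. The samples were 2 of knockdown cells, titled SH and labelled TRMT61A knockdown, and 2 of control cells, titled NC and labelled WT, all of the same line. Each sample gave an input library, which measures RNA level, and a library after immunoprecipitation with an antibody to N1-methyladenosine (m1A), for which the authors deposited a list of enriched regions (peaks) in mRNA and another in long noncoding RNA (lncRNA). The sources used here do not name the hairpin or vector, and do not say whether the knockdown line is a single clone or the replicates separate cultures. The p-values below thus reflect the scatter among these libraries, and that scatter may be technical.

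The mitochondrial ribosome translates the mRNAs of mitochondrial DNA, which encode core subunits of the respiratory chain and of ATP synthase. Its RNAs come from mitochondrial DNA, and its proteins come from nuclear genes, are made in the cytosol and are imported. The large subunit (most MRPL names) forms peptide bonds and holds the exit tunnel, and the small subunit (most MRPS names) reads the mRNA. Many of these proteins descend from bacterial ribosomal proteins and others are found only in mitochondria. TRMT61A is the catalytic partner of TRMT6 in the enzyme that places m1A in cytosolic tRNAs and at tRNA-like sites of some mRNAs, while m1A in mitochondrial RNA is placed by other enzymes.

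Total mRNA counts per input library were 38989448 and 37912238 in knockdown cells and 30046283 and 42177927 in control cells. TRMT61A itself had 13.4 and 6.71 CPM (the count scaled to the library's size with edgeR's TMM factors) in knockdown replicates 1 and 2, against 19.8 and 14.7 CPM in control replicates 1 and 2. Both knockdown libraries lay below both control libraries, but the log2 fold change of -0.78 (SE 0.29) was not significant in the quasi-likelihood test of edgeR, adjusted by Benjamini-Hochberg over all genes (unadjusted p = 0.0278, adjusted p = 0.9997, n = 2 each). Without knockdown replicate 1 it was -1.36 with an adjusted p of 0.00142, and over the other alternatives the adjusted p ranged from 0.185 to 1.00. Of 10 epithelial marker genes 8 passed the count filter, as did 1 of 5 immune, 3 of 4 endothelial and 4 of 6 fibroblast markers, and none of these 25 was at 0 in every library. The epithelial markers summed to 3576 and 3899 CPM in knockdown cells and 3367 and 3933 CPM in control cells. In each library the immune markers summed to at most 1.16 CPM in knockdown cells and 1.08 CPM in control cells, the endothelial markers to at most 2.37 CPM in knockdown cells and 2.62 CPM in control cells, and the fibroblast markers to at most 45.2 CPM in knockdown cells and 38.8 CPM in control cells.

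All 77 members were expressed above the filter on low counts, with 30 to 8222 counts per library. None of them passed the adjusted threshold of 0.05 between knockdown and control cells in edgeR's quasi-likelihood test, where 0.0374% of all 13362 tested genes did. At an unadjusted p under 0.05 there were 2 members, both lower in knockdown cells, and 3.30% of all tested genes. DESeq2 and limma-voom also called 0 members. The median log2 fold change of the members was -0.035, and that of all tested genes was -0.00056, with 28 members above and 49 below 0, where 49.8% of all tested genes were above 0. The changes were small, since 71 of 77 members (92.2%) lay within 0.25 log2 units of no change, as did 83.4% of all tested genes, and the median standard error of a member was 0.12. In bulk RNA of a culture, fewer cells with a transcript and less of it per cell cannot be told apart.

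**Figure D1:**
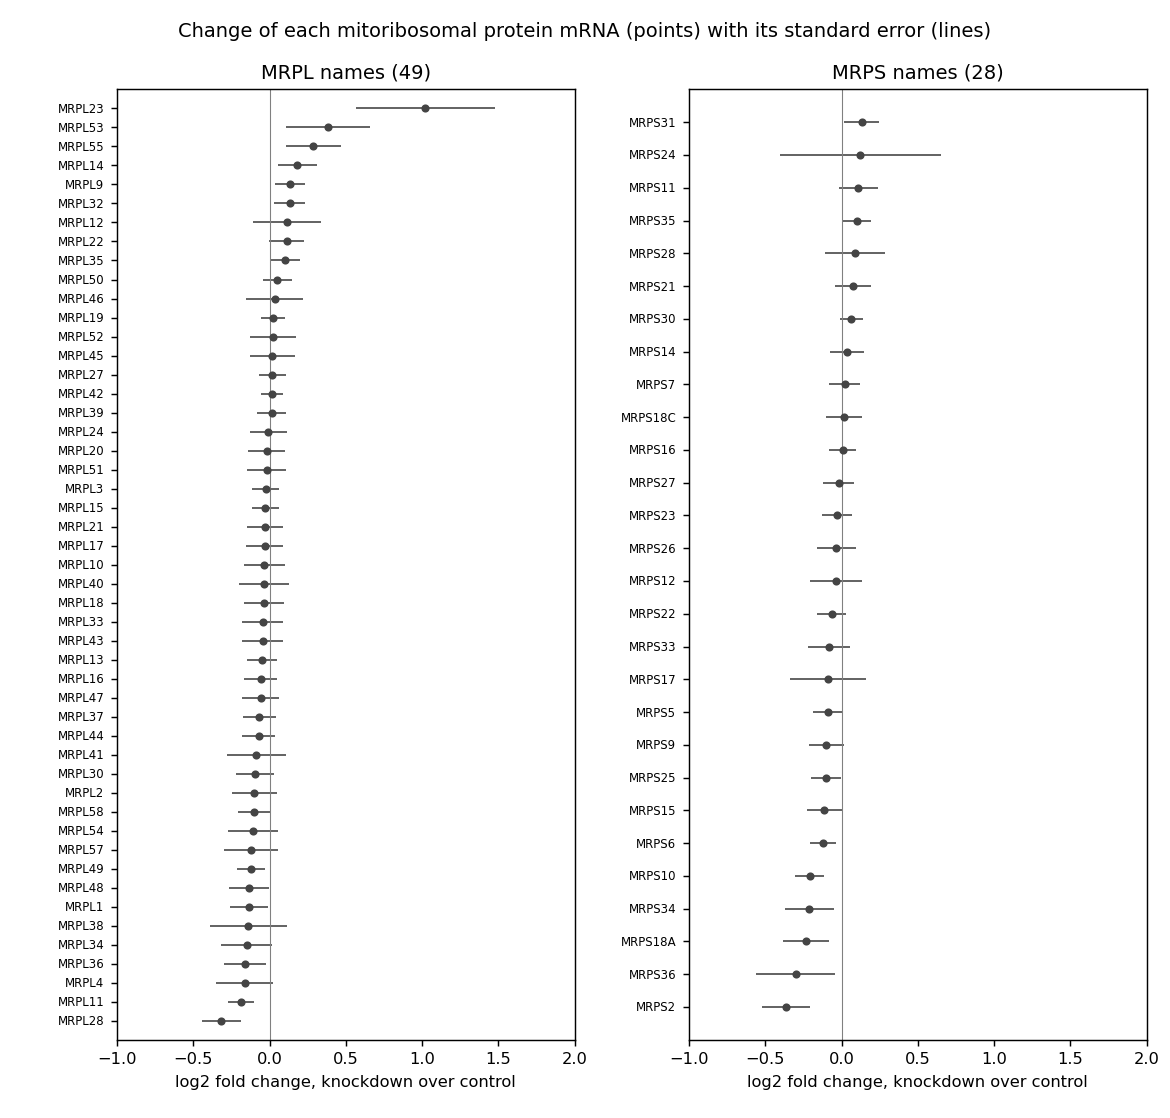
Log2 fold change, knockdown over control, of each member in the input libraries (points, 2 samples a group) with its standard error (lines), for the 49 MRPL names on the left and the 28 MRPS names on the right. Most points lie within 0.25 of 0, MRPL23 stands apart at 1.02 with a standard error of 0.46, and MRPS2 has the lowest value at -0.36.

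The members differed more between the 2 knockdown libraries than between knockdown and control cells, by the medians given here. Their summed level was 3129 and 2720 CPM in knockdown replicates 1 and 2, against 3025 and 2944 CPM in control replicates 1 and 2, so that the knockdown libraries held the highest and the lowest sum. Of 77 members, 71 (92.2%) were higher in knockdown replicate 1 than in replicate 2, with a median log2 difference of 0.19. Over all tested genes 50.3% were, with a median difference of 0.0014. Between the control libraries 47 members (61.0%) were higher in replicate 1 than in replicate 2, with a median log2 difference of 0.045. The 6 members that went against this in knockdown cells, named after their values were seen, were MRPL55, MRPL53, MRPL34, MRPS9, MRPL27 and MRPS18C. MRPL and MRPS names showed this alike, with 45 of 49 and 26 of 28 higher in knockdown replicate 1.

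Among the fits without 1 library, only that without knockdown replicate 2 turned the members' median above 0. Without knockdown replicate 1 the median was -0.15 with 15 members above 0, and without knockdown replicate 2 it was 0.061 with 58 above 0. Without control replicate 1 it was -0.011 and without control replicate 2 it was -0.042. TRMT61A had 520 and 258 counts in knockdown replicates 1 and 2, against 588 and 622 counts in control replicates 1 and 2, so that knockdown replicate 2 was the library with the lowest count. The part of either the knockdown or the library in this difference was not tested. As a share of all mRNA counts the members took 0.311% and 0.276% in knockdown cells and 0.299% and 0.295% in control cells, a ratio of the group means of 0.988.

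**Figure D2:**
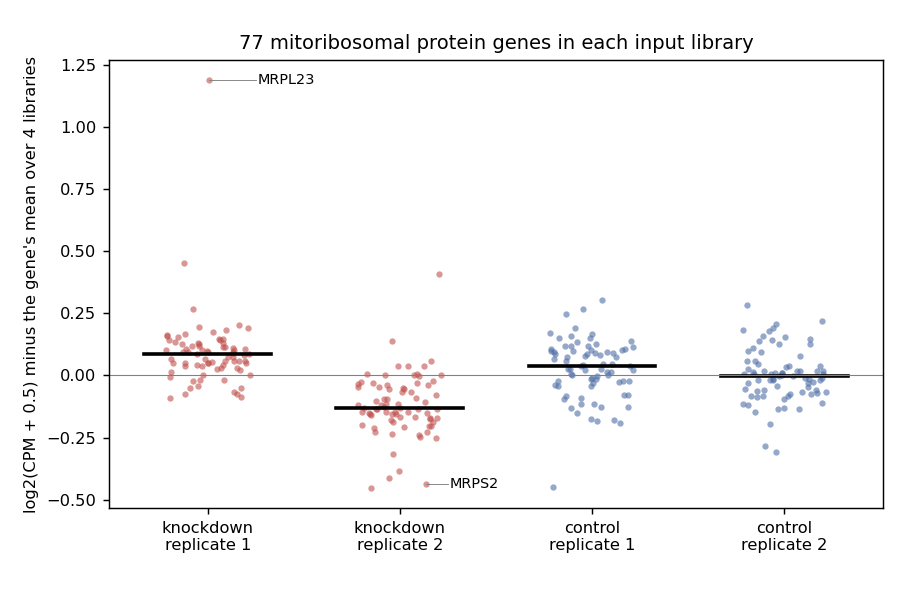
Each point is 1 of 77 members in 1 input library, as log2(CPM + 0.5) minus that gene's mean over the 4 libraries, and the black lines are medians. The median was 0.085 in knockdown replicate 1 and -0.13 in knockdown replicate 2, against 0.038 and about 0 in control replicates 1 and 2.

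Among proteins of the large subunit, MRPL28 had the smallest unadjusted p of all members. It encodes bL28m, a counterpart of the bacterial L28 protein, on the minus strand of chr16:366969-370538 (GRCh38, RefSeq). Its level was 17.9 and 15.8 CPM in knockdown cells, against 21.1 and 20.8 CPM in control cells. Both knockdown values lay below both control values, and the log2 fold change was -0.31 (SE 0.13, edgeR quasi-likelihood unadjusted p = 0.0379, adjusted p = 0.9997). It kept this direction in each fit without 1 library, at -0.41 to -0.23.

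MRPL11 (chr11:66435075-66438848, minus strand) encodes uL11m, at the base of the stalk that factors of translation bind. It had 50.8 and 47.9 CPM in knockdown cells and 56.1 and 56.3 CPM in control cells, again with no overlap of the groups, and a log2 fold change of -0.19 (SE 0.084, edgeR unadjusted p = 0.0533). The other 4 genes of the stalk list showed no common direction, with 2 of 4 above 0 and a median log2 fold change of 0.039. Of these MRPL53, a protein found only in mitochondria, was at 3.53 and 5.20 CPM in knockdown cells and 3.30 and 3.38 CPM in control cells.

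MRPL23 (chr11:1947332-2014944), which encodes uL23m at the exit of the tunnel, had the largest fold change of any member, and 1 library carried it. It was counted 608 and 180 times in knockdown replicates 1 and 2, against 139 and 225 times in control replicates 1 and 2, or 15.7 and 4.68 CPM against 4.69 and 5.32 CPM. Knockdown replicate 1 lay above the other libraries, while knockdown replicate 2 lay at the level of the controls. The log2 fold change of 1.02 (SE 0.46, unadjusted p = 0.0528) was not significant in edgeR's test after adjustment (adjusted p = 0.9997). It was -0.098 without knockdown replicate 1, and 1.64 with an edgeR adjusted p of 1.6e-04 without knockdown replicate 2, a fit in which 0.235% of 13641 tested genes were called. Over the other alternatives the adjusted p lay between 0.843 and 1.00. The RefSeq span of the gene also covers H19, MIR675 and MRPL23-AS1, whose part in these counts was not tested.

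Further genes of the tunnel and of the central protuberance differed less. MRPL22 (uL22m), which lines the tunnel, had 31.3 and 27.5 CPM in knockdown cells and 28.3 and 26.2 CPM in control cells, and its groups overlapped. MRPL55 (bL31m, in the central protuberance) had 8.36 and 8.40 CPM in knockdown cells and 6.58 and 7.14 CPM in control cells. Both knockdown values lay above both control values, at a log2 fold change of 0.29 (SE 0.18, edgeR unadjusted p = 0.143). Over the lists, 4 of 8 tunnel exit genes and 4 of 8 genes of the central protuberance lay above 0, with median log2 fold changes of 0.0043 and -0.0086.

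MRPL14, MRPL9 and MRPL49 complete the large subunit genes among the 12 members of smallest p. MRPL14 (uL14m, on the face towards the small subunit) had 22.7 and 21.0 CPM in knockdown cells and 18.0 and 20.6 CPM in control cells. Its groups did not overlap, at a log2 fold change of 0.18 (SE 0.13). MRPL9 (bL9m) had 56.0 and 48.6 CPM in knockdown cells and 45.9 and 49.4 CPM in control cells, and MRPL49 (mL49) had 71.8 and 63.1 CPM in knockdown cells and 71.0 and 75.9 CPM in control cells. The groups overlapped in both genes, since knockdown replicate 2 of MRPL9 and knockdown replicate 1 of MRPL49 lay between the control values.

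Among genes named for the small subunit, MRPS2 had the lowest fold change. It encodes uS2m, a counterpart of bacterial S2, on the plus strand of chr9:135499965-135504673. Its level was 40.1 and 28.3 CPM in knockdown cells and 41.0 and 46.8 CPM in control cells. Knockdown replicate 1 lay just under the lower control and replicate 2 well under it, giving a log2 fold change of -0.36 (SE 0.16, edgeR unadjusted p = 0.0471, adjusted p = 0.9997). Without knockdown replicate 1 it was -0.64 with an edgeR adjusted p of 0.0171, in a fit that called 0.987% of 13678 tested genes, while without knockdown replicate 2 it was -0.14. The adjusted p over the other alternatives ranged from 0.740 to 1.00.

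MRPS10 (uS10m, chr6:42206807-42217861, minus strand) lies in the head of the small subunit. It had 55.2 and 48.0 CPM in knockdown cells, against 61.6 and 57.8 CPM in control cells, with no overlap and a log2 fold change of -0.21 (SE 0.096, edgeR unadjusted p = 0.0585). MRPS6 (bS6m) had 53.1 and 48.5 CPM in knockdown cells and 56.2 and 54.4 CPM in control cells. SLC5A3, a transporter gene that lies inside the RefSeq span of MRPS6, had 340.2 and 325.4 CPM in knockdown cells and 352.8 and 342.4 CPM in control cells. Its part in the counts of MRPS6 was not tested.

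**Figure D3:**
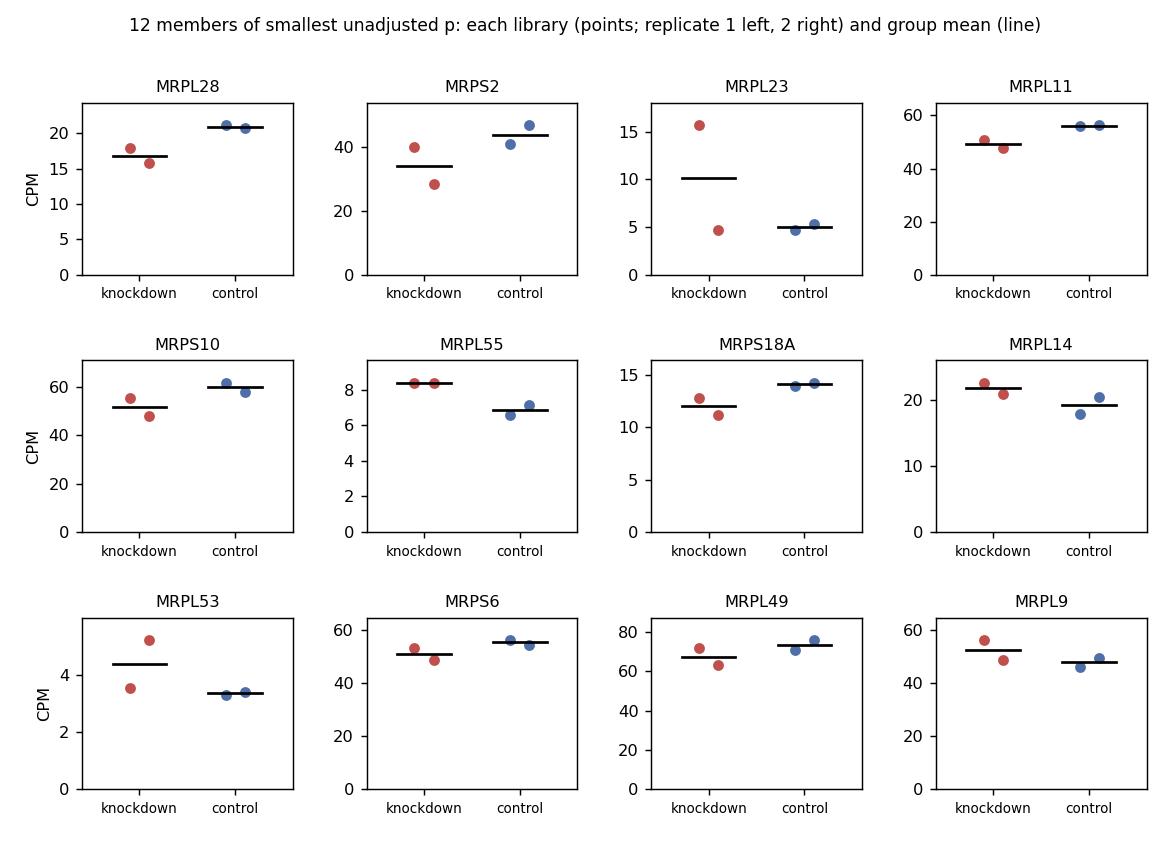
Level in CPM (linear axis from 0, scaled per gene) of the 12 members of smallest unadjusted p, with knockdown on the left and control on the right of each panel, a point per library and a line at the group mean. The groups do not overlap for 9 of the 12, which were chosen by their p in these same libraries. Among all tested genes both knockdown libraries lay below both controls for 14.7% and above them for 15.6%. In MRPL23 only knockdown replicate 1, at 15.7 CPM, lies away from the rest.

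Several genes carry an MRPS name although their protein sits elsewhere. MRPS18A and MRPS18C are paralogues of a bacterial S18 protein, and MRPS18A (mL66) and MRPS30 (mL65) belong to the large subunit in structures of the mammalian ribosome. MRPS18A had 12.8 and 11.2 CPM in knockdown cells and 13.9 and 14.2 CPM in control cells (log2 fold change -0.23, SE 0.15). MRPS18C, in the small subunit, had 22.6 and 24.3 CPM in knockdown cells and 24.0 and 22.4 CPM in control cells (log2 fold change 0.018, SE 0.12). The difference between these 2 paralogues was not tested.

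MRPS30 had 78.7 and 76.0 CPM in knockdown cells and 75.7 and 72.2 CPM in control cells, with no overlap and a log2 fold change of 0.065 (SE 0.077). MRPS36 is named KGD4 in RefSeq and belongs to the alpha-ketoglutarate dehydrogenase complex of the citric acid cycle. It had 3.53 and 3.30 CPM in knockdown cells and 4.79 and 3.66 CPM in control cells, at a log2 fold change of -0.30 (SE 0.26). Neither gene passed edgeR's test, with an adjusted p of 0.9997 for each.

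Over all members, both knockdown libraries lay below both control libraries for 11 of 77 (14.3%, where the share of all tested genes was 14.7%) and above them for 6 of 77 (7.79%, against 15.6% of all tested genes). The 11 were MRPL28, MRPS2, MRPL11, MRPS10, MRPS18A, MRPS6, MRPS36, MRPL36, MRPL1, MRPL34 and MRPL44, and the 6 were MRPL55, MRPL14, MRPL53, MRPS31, MRPS30 and MRPS28. Proteins with a bacterial counterpart (47 tested, 18 above 0) and proteins found only in mitochondria (29 tested, 10 above 0) had median log2 fold changes of -0.033 and -0.036. Both knockdown libraries lay below both controls for 9 of 47 genes with a bacterial counterpart (19.1%) and for 1 of 29 genes found only in mitochondria (3.45%), and above them for 3 of 47 (6.38%) and 3 of 29 (10.3%). The 2 members with an unadjusted p under 0.05 both have a bacterial counterpart. The difference between these classes was not tested. RefSeq lists 104 pseudogenes named after 41 of the members, and 18 members share part of their span with another coding gene, so that reads of near-identical copies or of overlapping genes may be split in the counts.

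Other genes that serve mitochondrial translation were not called either. None passed edgeR's adjusted threshold among 6 further subunits with other names, 17 translation factors, 17 mitochondrial aminoacyl-tRNA synthetases, 26 genes of ribosome assembly and ribosomal RNA modification, 15 genes of mitochondrial transcription, import and protein quality control, or 13 mRNAs of mitochondrial DNA. At an unadjusted p under 0.05 there were 3 of these 94 genes (3.19%, against 3.30% of all tested genes), all of them among the 13 mRNAs of mitochondrial DNA (23.1%). The median log2 fold changes were -0.04, -0.011, -0.036, -0.024, 0.0088 and -0.097 in that order of lists, so that the mRNAs of mitochondrial DNA had the median farthest from 0. Between the knockdown libraries, where 50.3% of all tested genes were higher in replicate 1 than in replicate 2, the counts were 6 of 6 further subunits, 12 of 17 translation factors (70.6%), 13 of 17 synthetases (76.5%), 23 of 26 assembly genes (88.5%), 13 of 15 transcription and import genes (86.7%) and 8 of 13 mRNAs of mitochondrial DNA (61.5%). Between the control libraries, where 50.04% of all tested genes were higher in replicate 1, the counts were 3 of 6, 12 of 17, 13 of 17, 12 of 26, 9 of 15 and 13 of 13 in the same order.

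The mRNAs of mitochondrial DNA are what these ribosomes translate. Of the 13, 11 had a fold change below 0. MT-CO1, a subunit of cytochrome c oxidase, had 7964 and 7539 CPM in knockdown cells and 9625 and 8188 CPM in control cells, at a log2 fold change of -0.20 (SE 0.084, edgeR unadjusted p = 0.0411, adjusted p = 0.9997). MT-ND6, the mRNA of the other DNA strand, had 1378 and 1207 CPM in knockdown cells and 1163 and 1077 CPM in control cells, at 0.21 (SE 0.084, edgeR unadjusted p = 0.0374). Control replicate 1 held the highest summed level of the 13, at 32380 CPM, where the other control had 26589 CPM and the knockdown libraries 27072 and 26355 CPM. All 13 were higher in control replicate 1 than in control replicate 2, with a median log2 difference of 0.23, where the knockdown libraries differed by 0.022. In these mRNAs the wider difference lay between the control libraries, and in the members between the knockdown libraries.

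The widest fold changes in these lists, those of VARS2 and MRM1, came from genes of low count. VARS2, the mitochondrial valyl-tRNA synthetase, had 0.258 and 0.494 CPM in knockdown cells and 1.08 and 0.614 CPM in control cells (log2 fold change -1.15, SE 0.60). MRM1, which methylates mitochondrial ribosomal RNA, had 1.16 and 0.806 CPM in knockdown cells and 0.607 and 0.496 CPM in control cells (0.84, SE 0.50). CHCHD1 (mS37), a subunit of the small subunit, had 12.8 and 10.04 CPM in knockdown cells and 16.8 and 12.3 CPM in control cells. None of these passed edgeR's test, with an adjusted p of 0.9997 for each.

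m1A peaks were listed in fewer members than in tested genes as a whole. A peak in at least 1 of the 4 lists was found for 27 of 77 members (35.1%), against 51.3% of all tested genes. The lists of knockdown replicates 1 and 2 held 16 and 10 members (20.8% and 13.0%, where 30.9% and 22.3% of all tested genes had a peak), and those of control replicates 1 and 2 held 13 each (16.9%, where 34.7% and 24.7% had a peak). The mean was 13.0 ± 4.2 members in knockdown lists and 13.0 ± 0.0 in control lists (SD, n = 2 each; exact two-sided permutation test over the lists, p = 1.0, where the smallest p that 2 against 2 allows is 0.333). The lists held 5793 and 3686 mRNA peaks in all in knockdown cells and 6701 and 4319 in control cells. The knockdown list with fewer peaks also had fewer members, while the control lists held 13 members each. Peaks depend on the reads at a site in both libraries, which were not analysed here. The lengths of the members and of the other tested genes were not compared either.

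The 56 peaks of members joined into 31 regions by an overlap of at least 1 base. Of these, 3 were listed in all 4 samples (9.68%, against 10.997% of all mRNA regions), 6 in 3 (19.4%, against 9.93%), 4 in 2 (12.9%, against 17.9%) and 18 in a single sample (58.1%, against 61.1%). The authors' fold for a peak, the linear ratio of its immunoprecipitated to its input signal, ran from 2.47 to 29.2 over the members' peaks with a median of 6.22, and the median of all peaks was 6.45. Folds are given below for each list and were not compared between lists. No member region lay within 10000 bases of a tRNA gene of RefSeq.

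**Figure D4:**
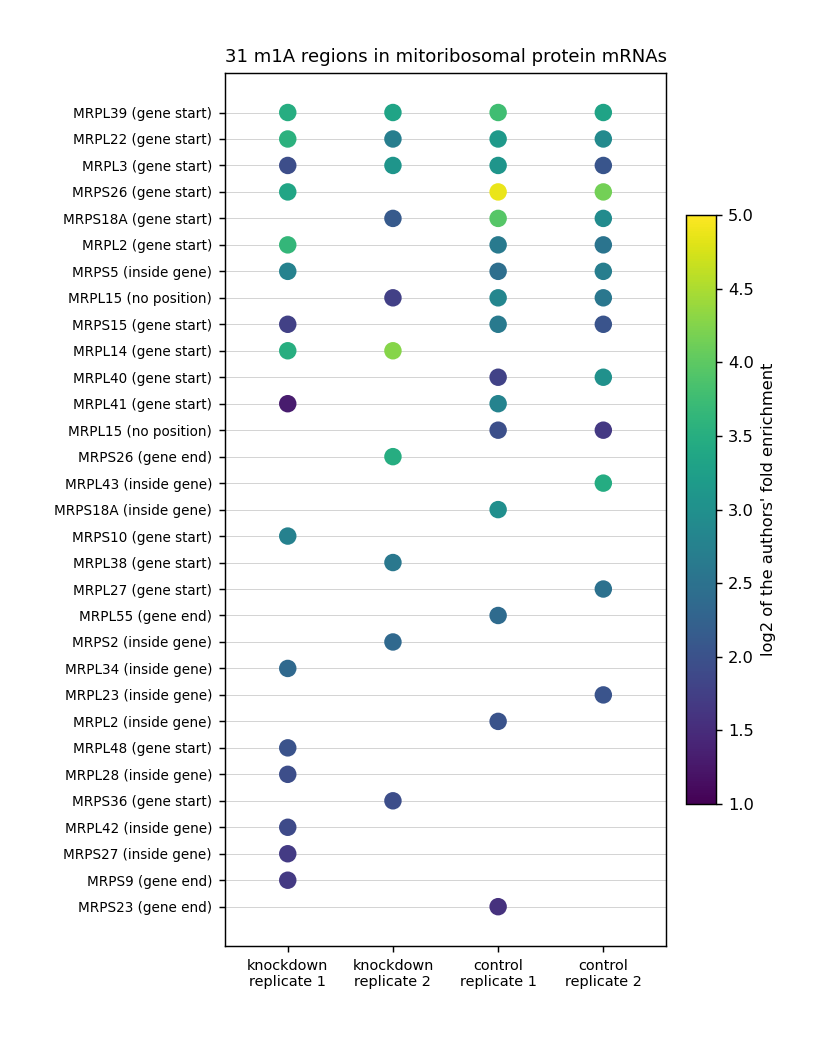
Each row is 1 of 31 m1A regions and each column a sample, with a dot where the authors listed a peak, coloured by the log2 of its fold (the highest where a list holds 2). Rows run from the 3 regions in all 4 lists, in MRPL39, MRPL22 and MRPL3, to the 18 in a single list.

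Many of the regions sat at the start of their gene. Of the 29 regions with a strand and a position in the annotation, 15 (51.7%) reached into the window from 300 bases before to 500 bases after the 5′ end of the RefSeq gene, 4 (13.8%) into the mirrored window at its 3′ end, from 500 bases before to 300 bases after it, and 10 (34.5%) lay inside. Over all 11188 mRNA regions with a position these shares were 36.1%, 3.32% and 60.6%. In both sets a region that reached both windows, such as that of MRPL41, was counted at the start only. Gene length, which sets how much of a gene these windows take, was not compared.

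**Figure D5:**
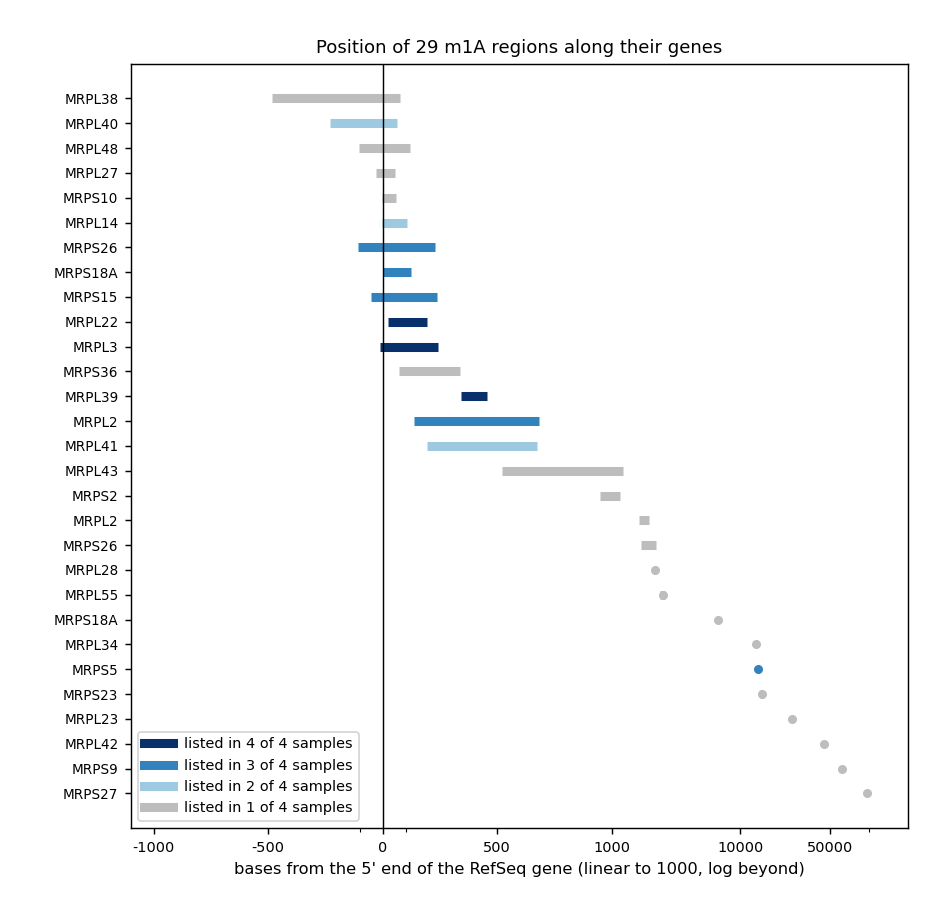
Bars show the extent of 29 regions along the gene, in bases from the 5′ end of the RefSeq gene (axis linear near the start and logarithmic beyond), with a dot at the centre and darker blue for regions in more lists. The 3 regions in all 4 lists start between 12 bases before and 342 bases after the 5′ end.

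The sequences of 8 gene starts are shown because a region in at least 2 lists touched the promoter entry of that gene. Each line gives 120 bases 5′ to 3′ on the gene's strand, from 90 bases before to 30 bases after the first base of the transcript, from RefSeq on GRCh38.p14. Capitals mark the bases inside the part that all listed peaks of the region share.
MRPL3: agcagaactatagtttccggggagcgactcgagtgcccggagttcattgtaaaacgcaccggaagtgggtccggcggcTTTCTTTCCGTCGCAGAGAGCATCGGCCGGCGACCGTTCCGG
MRPL22: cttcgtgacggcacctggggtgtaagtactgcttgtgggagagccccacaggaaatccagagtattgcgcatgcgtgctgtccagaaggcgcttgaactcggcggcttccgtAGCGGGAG
MRPL39: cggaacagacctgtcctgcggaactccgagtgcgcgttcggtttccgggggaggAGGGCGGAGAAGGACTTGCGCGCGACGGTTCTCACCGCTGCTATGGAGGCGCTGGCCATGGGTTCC
MRPS26: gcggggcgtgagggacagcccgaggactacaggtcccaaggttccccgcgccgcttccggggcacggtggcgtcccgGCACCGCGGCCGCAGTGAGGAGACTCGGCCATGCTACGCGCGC
MRPS15: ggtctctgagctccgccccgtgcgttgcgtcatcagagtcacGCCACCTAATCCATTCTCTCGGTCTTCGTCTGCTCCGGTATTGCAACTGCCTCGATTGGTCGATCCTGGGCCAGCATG
MRPS18A: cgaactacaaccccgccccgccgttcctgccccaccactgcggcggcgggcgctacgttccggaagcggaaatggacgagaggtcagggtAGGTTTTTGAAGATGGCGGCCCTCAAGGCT
MRPL14: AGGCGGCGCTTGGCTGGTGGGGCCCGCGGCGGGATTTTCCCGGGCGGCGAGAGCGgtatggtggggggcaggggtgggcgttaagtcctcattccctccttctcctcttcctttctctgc
MRPL40: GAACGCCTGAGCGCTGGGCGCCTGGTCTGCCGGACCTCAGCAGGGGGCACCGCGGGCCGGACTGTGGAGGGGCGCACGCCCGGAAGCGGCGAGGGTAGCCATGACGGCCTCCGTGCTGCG

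The stretches are chr3:131502942-131503061 on the minus strand for MRPL3, chr5:154940983-154941102 on the plus strand for MRPL22, chr21:25607452-25607571 on the minus strand for MRPL39 and chr20:3045962-3046081 on the plus strand for MRPS26. Those of MRPS15, MRPS18A and MRPL14 are chr1:36464355-36464474, chr6:43687762-43687881 and chr6:44127279-44127398, all on the minus strand, and that of MRPL40 is chr22:19432455-19432574 on the plus strand. In MRPS18A the capitals begin at the first transcribed base, so that the listed peak ends exactly at the start of the annotated transcript, and in MRPL3 and MRPS26 they begin 12 and 13 bases before it. In MRPL39, MRPS15 and MRPL40 the capitals reach further upstream, and in MRPL14 they lie wholly upstream of the start that the promoter entry uses. The RefSeq spans of MRPL39 and MRPL14 also begin upstream of that start, while those of MRPS15 and MRPL40 begin at it. The peak bounds were identical in every list that held the region for 8 of the 13 regions found in at least 2 lists.

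The 3 regions in all 4 lists lie in genes of the large subunit. That of MRPL3, whose uL3m protein lies near the site of peptide bond formation, spans chr3:131502730-131502983 and had folds of 3.86 and 8.45 in knockdown cells and 8.50 and 4.14 in control cells. That of MRPL22 spans chr5:154941095-154941265, with folds of 11.7 and 6.48 in knockdown cells and 8.87 and 7.42 in control cells. That of MRPL39 (mL39), found only in mitochondria, spans chr21:25607403-25607517, with 11.2 and 10.2 in knockdown cells and 13.7 and 10.01 in control cells.

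The mRNA levels of these 3 genes were close between groups. MRPL3 had 207.8 and 175.7 CPM in knockdown cells and 196.1 and 194.3 CPM in control cells, at a log2 fold change of -0.025 (SE 0.09). MRPL39 had 80.7 and 68.2 CPM in knockdown cells and 72.5 and 74.8 CPM in control cells, at 0.016 (SE 0.095). The fold change of MRPL22 was 0.11 (SE 0.12).

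MRPS26 (mS26, of the small subunit) was also named in all 4 lists, but not at the same place. At its start, folds were 10.3 in knockdown replicate 1 and 29.2 and 17.8 in control replicates 1 and 2, and no peak was listed there in knockdown replicate 2. Each of these control folds was the highest of any member in its list. In knockdown replicate 2 the listed peak was at the 3′ end of the gene, at chr20:3047735-3048254, with a fold of 11.2. The mRNA had 33.3 and 29.4 CPM in knockdown cells and 28.8 and 35.3 CPM in control cells.

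Of the 6 regions in 3 lists, that of MRPS26 included, 4 were missing from knockdown replicate 2, 2 from knockdown replicate 1 and none from a control list. Among all 1189 mRNA regions in 3 lists, 38.4% were missing from knockdown replicate 2, 29.5% from knockdown replicate 1 and 32.1% from a control list, and knockdown replicate 2 had the fewest peaks of the 4 lists. MRPS18A had a peak at its start with a fold of 4.33 in knockdown replicate 2 and 15.4 and 7.57 in control cells. MRPS15 (uS15m) had folds of 3.43 in knockdown replicate 1 and 6.22 and 4.13 in control cells. The region of MRPS5 (uS5m), at chr2:95108175-95108408 and 13595 bases into the gene, had folds of 6.83 in knockdown replicate 1 and 5.45 and 6.47 in control cells. MRPL2 (uL2m, part of the peptidyl transferase region) had 12.6 in knockdown replicate 1 and 6.23 and 5.84 in control cells, in peaks of which 1 reaches into the span of the neighbouring gene KLC4. The first region of MRPL15 (uL15m) had 3.37 in knockdown replicate 2 and 7.11 and 5.99 in control cells.

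A single member region was listed in both knockdown samples and in neither control, and 2 were listed in both controls and in neither knockdown sample, where 2.30% and 5.83% of all 11976 mRNA regions had these patterns. The first was the start of MRPL14, at chr6:44127344-44127457, with folds of 11.4 and 19.3. It lies within the RefSeq span of TMEM63B, which overlaps the start of MRPL14, and the lists give no strand. The others were the start of MRPL40 (mL40, of the central protuberance), with folds of 3.45 and 8.03 in control replicates 1 and 2, and a second region of MRPL15, with 3.89 and 3.16. MRPL43 (mL43) had the highest fold among regions of a single control list, at 10.99 in control replicate 2, and its mRNA had 23.1 and 19.8 CPM in knockdown cells and 23.6 and 20.7 CPM in control cells.

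Members with a peak in any list had a median log2 fold change of mRNA of -0.045 (27 genes, 7 above 0), and members with none had -0.030 (50 genes, 21 above 0).

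The promoter entries, 300 bases from 250 before to 50 after the start, were available for 69 members. The letters CCGGAAG, a core of sites for ETS factors such as GABP, stood on either strand in 29 of 69 (42.0%), against 18.6% of 10472 promoters of tested genes and 10.7% of all 27305 promoters. Above they stand on the printed strand of MRPL3 (bases -32 to -26 from the first transcribed base, which is 0), MRPS18A (-31 to -25) and MRPL40 (-11 to -5), and on the other strand of MRPS26 (-37 to -31). The letters AANATGGC, a core of YY1 sites, stood in 24 of 69 (34.8%), against 9.96% and 6.82%, and that of MRPS18A, from base 9 to base 16, lies inside its m1A region. GCGCANGCGC, a core of NRF1 sites, stood in 8 of 69 (11.6%), against 11.3% and 6.28%, and TATAAA stood in 3 of 69 (4.35%), against 5.73% and 11.95%. A match is a stretch of letters and not a bound site. The median log2 fold change was -0.044 with the ETS letters (29 members) and -0.026 without them (40), and about 0 with the YY1 letters (24) and -0.058 without them (45).

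The lncRNA table holds 120 transcripts under 51 of the members' names, of which 103 are labelled as overlapping exons in sense and 12 as natural antisense. These 12 lie on the same strand as the member they are named after, so the label does not mean antisense to that member. The genes that the label refers to were not analysed here. None of the 72 tested was called by edgeR, where 0.0219% of all 22803 tested transcripts were. DESeq2 and limma-voom called 0 of them too. At an unadjusted p under 0.05 in edgeR's test there were 2, both higher in knockdown cells, and 4.55% of all tested transcripts. The median log2 fold change of the 72 was 0.047, with 39 above and 33 below 0, and that of all tested transcripts was 0.0020. Transcript ENST00000520285 of MRPS27, a protein of the small subunit found only in mitochondria, had 89 and 80 counts in knockdown cells and 42 and 42 counts in control cells (log2 fold change 0.87, SE 0.31, edgeR unadjusted p = 0.0100, adjusted p = 1.00). Other tested transcripts of MRPS27 went both ways, with log2 fold changes from -1.02 to 0.86. Most transcripts under the members' names share exons with the mRNA, so that their reads cannot be told apart from those of coding isoforms.

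The lncRNA peak lists named 5 members in 8 peaks. MRPL28 and MRPL38 (mL38, of the central protuberance) were in both control lists and in neither knockdown list, a pattern shared by 6.07% of the 4198 gene names in any lncRNA list. These lists held 2343 and 1384 peaks in knockdown cells and 2588 and 1696 in control cells. The folds were 9.80 and 11.7 for MRPL28 and 8.28 and 5.32 for MRPL38 in control replicates 1 and 2. The MRPL28 transcript of the peak in control replicate 1 (ENST00000481453) had 0 and 0 input counts in knockdown cells and 5 and 4 in control cells, and was below the filter of the test. Input counts of the transcripts given for the other 3 of these peaks were not analysed here. The mRNA lists held both genes in a knockdown sample only, at other places of the gene. There MRPL28 had a peak in knockdown replicate 1 with a fold of 3.87, and MRPL38 had one in knockdown replicate 2 with 6.06. In the lncRNA lists, MRPS2 was named in knockdown replicate 2 with a fold of 7.19 and in control replicate 1 with 5.67, at different places of the gene. MRPS14 was listed in knockdown replicate 1 and MRPL13 in control replicate 1.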

How the data were processed

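The members and gene lists were chosen with earlier results of these data known. Per the labels' protocols, total RNA was depleted of ribosomal RNA and enriched with an m1A immunoprecipitation kit. Both a TruSeq stranded and a NEBNext directional library kit are named. Tools in the submitters' processing notes are edgeR, STAR, HTSeq 0.9.1 and HISAT2 2.0.4, and the build is hg38, with no role or strand setting stated. Raw counts of the 4 inputs were deposited per gene and per lncRNA transcript, per the file headers, beside 8 normalized columns left unused here. The authors' peak lists, 1 per sample, give a fold enrichment (a linear ratio, at least 2) and a score, the negative log10 of p multiplied by 10 (at least 50), per the file headers. Their starts count from 0 and were raised by 1.

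Counts were fitted here with edgeR 4.0.16 in R 4.3.3 (filterByExpr with a minimum count of 10, TMM, glmQLFit, glmQLFTest, no covariate) on 2 knockdown and 2 control inputs, with Benjamini-Hochberg adjustment over all tested genes and a threshold of 0.05. Each standard error was taken as the absolute log2 fold change divided by the square root of the F statistic of the quasi-likelihood test. The fits were tested on simulated data. Alternatives were DESeq2 1.42.0, limma-voom 3.58.1, other scaling and filters, a replicate block and leaving out each library. Named were the 12 members of smallest p, members with a peak in all 4 lists, the 6 regions of highest mean fold, the MRPS18 paralogues, MRPS30 and MRPS36, and in other lists up to 3 genes of smallest p. A part of the rule on reads per kilobase was not used because no gene length was given. All 77 members matched RefSeq, 1 of them under another symbol. Replicates are separate samples by their labels. Their counts differed by more than sampling noise (chi-square per degree of freedom of 19.6 in knockdown cells and 15.6 in control cells). This does not show at which step they differed.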

Additional observations from a re-analysis of the deposited data

How the results depend on the processing

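The count of genes called over the whole mRNA table was 5, and it was 24 with DESeq2, 3 with limma-voom, 14 with no filter on low counts and 15 with a replicate block. The numbers do not pair the samples by the labels, and the correlation of same-numbered deviations was 0.0996. The replicate block called 0 members, with a median log2 fold change of -0.036. Without 1 library, 11 to 135 genes were called, 0 to 1 members were called (MRPS2 without knockdown replicate 1, MRPL23 without knockdown replicate 2), the members' median ran from -0.15 to 0.061 and 15 to 58 members were above 0. The medians ran from -0.15 to 0.067 for MRPL names and from -0.16 to 0.050 for MRPS names, the fold change of TRMT61A from -1.36 to -0.36, and the members' share ratio from 0.929 to 1.05. With the TMM-scaled sum the share ratio was 0.980. The ratio of members with a peak, 1.0, was 0.818 at an authors' score of at least 100, 0.708 at a fold of at least 4, and 0.769 to 1.23 without 1 list. Regions in every list numbered 3, and 2 at either of these limits, 3 with the overlap of 50% and 3 to 7 among the remaining lists without 1 of them. No noncoding transcript under a member's name was called in any alternative. For the 20 named genes, 120 of 120 values outside the fits without 1 library kept their direction and side of the threshold. Without 1 library, 6 named genes turned, namely MRPL23 (-0.098 to 1.64), MRPL3 (-0.15 to 0.090), MRPL39 (-0.11 to 0.13), MRPS26 (-0.17 to 0.12), MRPL43 (-0.16 to 0.061) and MRPS18C (-0.036 to 0.070), and the cause was not tested. With 1 sample left in a group, that sample is assumed to vary like the others. Libraries of 30046283 to 42177927 counts gave a median standard error of 0.12 log2 units per member.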
